A study of Caenorhabditis elegans with 6 samples.

Results

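The fbxa genes of the nematode Caenorhabditis elegans were examined in whole-animal RNA from 3 libraries of animals treated with HLB01 and 3 libraries of Control animals. Members were all genes of the deposited table whose identifier maps to a symbol of the form fbxa- plus a number. There were 170 of them among the 46778 genes of the table, all annotated as protein-coding. Of these, 90 had at least 1 TPM in 3 or more libraries and are described here, and 80 lay below. The symbol fbxa-41 belongs to 2 identifiers on chromosome X, WBGene00018684 and WBGene00021987, which are counted as separate genes and are both among the 80. TPM is a transcript abundance that the authors scaled for transcript length and to a fixed library total, so levels can be compared between genes. HLB01 appears in the labels as a code name only, and by its title the series studies extract from roots of Vicatia thibetica. The sources used here give no strain, dose, duration, age or number of animals. Titles, which set the groups, give 3 replicates of HLB01, although the field for the agent carries a different number (HLB01, HLB02, HLB03) in each treated library. Separate cultures are not stated for the replicates, and the p-values cover the spread among these 6 libraries, which may be technical.

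F-box proteins are the substrate receptors of SCF ubiquitin ligases. Their F-box domain binds a Skp1-related adaptor (SKR in the worm), which holds them to a cullin and a RING-finger protein, and the rest of the protein binds the target that is marked with ubiquitin, often for destruction by the proteasome. Nematodes carry an unusually large set of F-box genes, and fbxa genes form the class in which the F-box stands beside an FTH domain, named after FOG-2, a germline sex-determination protein of the worm. The targets of most FBXA proteins are unknown. FBXA-75 and FBXA-158 act with the cullin CUL-6 in a ligase of the intracellular pathogen response, which protects worms against protein stress.

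No read counts were in the table, so the depth is unknown and the spread between libraries is the measure of error. HLB01 replicate 3 stood apart on the first principal component of the 12590 genes tested, with a score of 32.0 against -15.3 to -0.57 in the other libraries, and ribosomal RNA took 2123 to 4895 TPM in HLB01 libraries and 530 to 2684 TPM in Control libraries. Of 29 marker genes of 7 tissues, 24 were at 1 TPM or more in at least 3 libraries. The summed germline and oocyte markers were at 1738 to 1914 TPM in HLB01 libraries and 1769 to 1875 TPM in Control libraries. Those of body wall muscle were at 66.2 to 102.8 TPM in HLB01 and 88.1 to 99.1 TPM in Control libraries. Intestine markers were at 286 to 299 and 294 to 317 TPM, and epidermis markers at 85.0 to 100.1 and 78.1 to 90.5 TPM, in the same order. Only 1 of the 3 epidermis markers was at 1 TPM or more in at least 3 libraries. In all 7 tissues the ranges of the groups overlapped. In RNA of whole animals, fewer cells of a type and less RNA per cell cannot be told apart.

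Levels within the family ran from abundant to undetected. The gene fbxa-215 (WBGene00012879, WBcel235 chromosome IV, 13665364 to 13666909, minus strand) was the highest in all 6 libraries. It had 236.79, 234.21 and 240.64 TPM in HLB01 libraries, against 219.05, 222.23 and 219.73 TPM in Control libraries. All 3 HLB01 values thus lay above all 3 Control values, by little. Its mean of 228.8 TPM was 3.73 times that of the next member, exceeded 95.3% of all genes tested, and made up 24.9% of the summed mean level of the 170 genes. Next came fbxa-60 on chromosome III (944733 to 946300), with 62.28, 62.35 and 60.38 TPM in HLB01 libraries and 56.89, 63.03 and 62.75 TPM in Control libraries, where the groups overlap. The first 5 places were filled by the same genes in each of the 6 libraries: fbxa-215, fbxa-60, fbxa-210, fbxa-101 and fbxa-107, with mean levels of 228.8, 61.3, 54.6, 49.4 and 41.2 TPM.

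The next 5 were fbxa-95, fbxa-206, fbxa-114, fbxa-24 and fbxa-192, at mean levels of 27.03, 23.9, 18.7, 17.6 and 17.3 TPM. Among neighbours in this order, the ranges over the 6 libraries were apart between fbxa-215 and fbxa-60, fbxa-60 and fbxa-210, fbxa-101 and fbxa-107, fbxa-107 and fbxa-95, and fbxa-206 and fbxa-114. They overlapped between fbxa-210 and fbxa-101, fbxa-95 and fbxa-206, fbxa-114 and fbxa-24, and fbxa-24 and fbxa-192. Compared within each library, fbxa-210 lay above fbxa-101 and fbxa-95 above fbxa-206 in all 6 libraries. The order of fbxa-114 and fbxa-24, and that of fbxa-24 and fbxa-192, varied between libraries and is not resolved. The first 10 genes held 58.8% of the family's summed mean level. Of the 90 described genes, 17 averaged 10 TPM or more, 36 averaged 3 to 10 TPM and 37 averaged under 3 TPM. Their median of the mean level was 3.45 TPM, against 16.7 TPM over all genes tested.

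**Figure D1:**
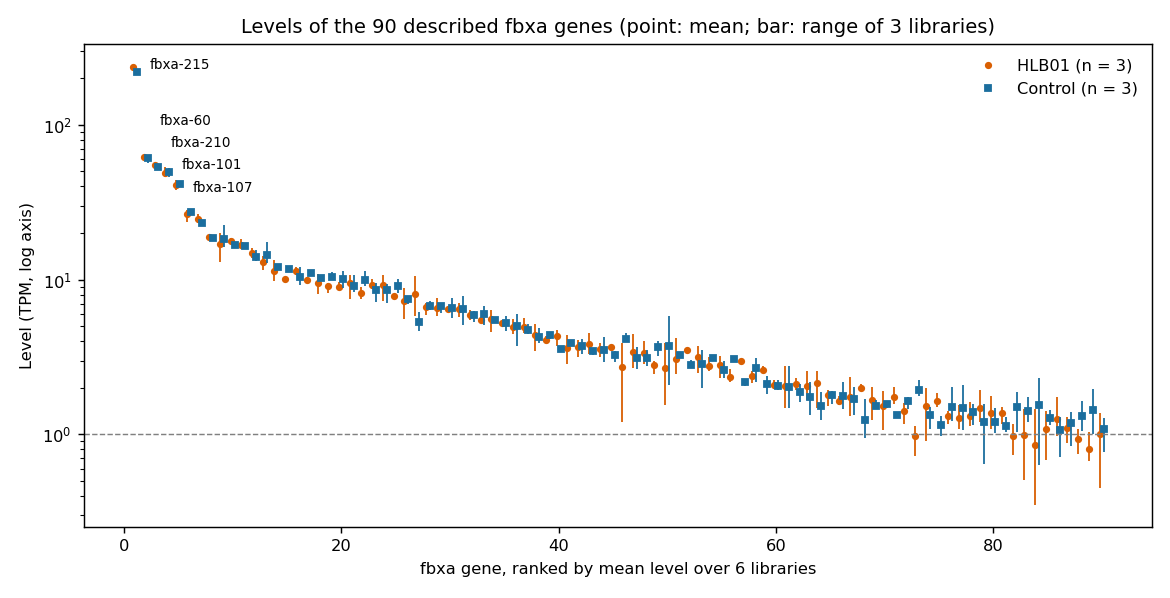
Levels (TPM, log axis) of the 90 described fbxa genes, ranked by their mean over 6 libraries. Orange points and bars are the mean and range of the 3 HLB01 libraries, blue squares and bars those of the 3 Control libraries, and the dashed line is 1 TPM. fbxa-215 stands alone at 228.8 TPM, and 37 genes average under 3 TPM, where the bars are long.

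Of the 80 genes below the rule, 69 never reached 1 TPM, 4 of them listed at 0 in all libraries, and 11 reached it in 1 or 2 libraries. In 46 of the 80 the value was above 0 in all 6 libraries. Over all 80 genes the median of the mean levels was 0.26 TPM. The rule thus divides a continuum. Just inside it, fbxa-164 had 0.70, 0.67 and 1.03 TPM in HLB01 libraries and 1.33, 1.00 and 1.96 TPM in Control libraries. Also just inside were fbxa-32 and fbxa-85, with mean levels of 1.12 and 1.24 TPM. Just outside were fbxa-99, fbxa-42 and fbxa-190, with mean levels of 0.82, 0.85 and 0.87 TPM. Every described gene had at least 1 library of each group at 1 TPM or more. In fbxa-164 and fbxa-32, however, all 3 Control libraries but only 1 HLB01 library did, so the Control values alone met the rule. Control values also met it by themselves in fbxa-165, fbxa-66, fbxa-85, fbxa-144 and fbxa-184, where 2 HLB01 libraries reached 1 TPM. In fbxa-167, fbxa-218 and fbxa-35 the reverse held, with all 3 HLB01 but 2 Control libraries at 1 TPM or more. Except in fbxa-66, the group that met the rule by itself had the higher mean in these genes. The share described, 52.9%, compares with 61.2% of the 19725 protein-coding genes in the table.

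Described fbxa genes are short. Their merged exons covered 836 to 2085 bases, with a median of 1157.5 bases and 4 exons, and 70 of the 90 have a single annotated transcript. Genes below the rule had a median of 1094.5 bases and 4 exons, and all protein-coding genes tested had medians of 1334 bases and 5 exons. An annotated gene with a mean of at least 1 TPM over the 6 libraries shares exonic bases with fbxa-3 (linc-16, same strand), fbxa-94 (mdt-28, opposite strand) and fbxa-113 (fbxb-59, opposite strand). The shared bases were 496 of 1714 exonic bases in fbxa-3, 58 of 1093 in fbxa-94 and 24 of 1011 in fbxa-113. The strand setting of the counting was not given in the sources used here. Whether reads from the shared bases of fbxa-94 and fbxa-113 were separated by strand is thus unknown, and in fbxa-3 strand cannot separate them. For fbxa-94, at a mean of 1.53 TPM, the partner mdt-28 was at 105.4 TPM in HLB01 and 104.9 TPM in Control libraries. Family members with near-identical sequence would share reads, which the authors' counting divides by a model. No described member repeated the values of another gene. Genes that share reads can still receive different values, so this does not show that reads were not shared.

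Treated and Control animals were compared gene by gene to find transcripts that differ with the treatment. None of the 90 fbxa genes passed limma with a mean-variance trend at a Benjamini-Hochberg adjusted p below 0.05 over all genes. Of the 12590 genes tested, 0.397% passed, 0.167% higher and 0.23% lower in HLB01. At an unadjusted p below 0.05 there were 9 fbxa genes, or 10.0%, against 8.32% of all genes tested. Of these 9, 5 were higher in HLB01 animals and 4 lower, against 3.8% and 4.52% of all genes. Without HLB01 replicate 3 no fbxa gene passed in limma, 5 (5.56%) had an unadjusted p below 0.05, against 8.67% of all genes in that fit, and 46 differences were positive and 44 negative. Positive and negative log2 differences were equally many in the family, 45 and 45, and the median was 0.00, as over all genes. Groups did not overlap for 17 of the 90 genes (18.9%; 8 higher and 9 lower), against 13.8% of all genes tested (6.85% higher and 6.99% lower). With no filter on low values, 13 of 166 members (7.83%) had an unadjusted p below 0.05, against 6.76% of all genes, and no member passed limma's adjusted threshold, which 0.107% of all genes did.

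How far these data limit a difference can be read from the 95% intervals. For 87 of the 90 genes (96.7%) the interval lay within 1 log2 unit either side of 0, which is a doubling or halving on the log2(TPM + 1) scale, against 95.2% of all genes tested. For 63 genes (70.0%) it lay within 0.5 log2 units, against 75.8%. The pseudocount of 1 shrinks differences of genes near 1 TPM, so for these the limit is looser in TPM than it looks. Ratios of mean TPM, HLB01 over Control, ran from 0.504 for fbxa-165 to 1.62 for fbxa-167. They lay within 1.25-fold for 73 of the 90 genes (81.1%), against 87.4% of all genes tested, and beyond 1.5-fold for 7 genes (7.78%), against 4.48%.

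**Figure D2:**
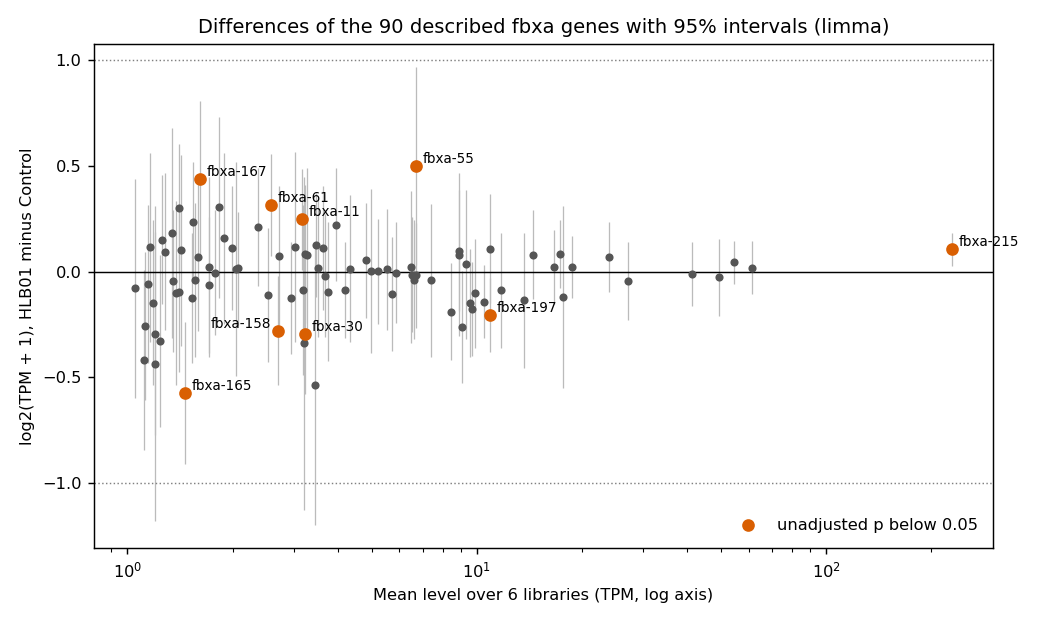
Differences in log2(TPM + 1), HLB01 minus Control, with 95% limma intervals (vertical bars) against the mean level over 6 libraries (TPM, log axis) for the 90 described fbxa genes. Orange points are the 9 genes with an unadjusted p below 0.05, and dotted lines mark 1 log2 unit. Points scatter evenly about 0 and the intervals narrow to the right.

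The member with the smallest p was fbxa-165 (WBGene00015600, chromosome II, 1614689 to 1616482). Its level was 0.72, 1.09 and 1.13 TPM in HLB01 libraries, against 1.83, 1.76 and 2.24 TPM in Control libraries. The groups did not overlap, with means of 0.98 ± 0.226 TPM in HLB01 and 1.94 ± 0.259 TPM in Control (SD, n = 3 each). The log2 difference was -0.57 ± 0.14 (SE; limma adjusted p = 0.246). Its size depended on the pseudocount: adding 0.1 TPM in place of 1 TPM gave -0.94, and adding 5 TPM gave -0.22. How many reads lie behind a gene at this level is unknown.

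In fbxa-215, the smallest p but for that gene came with a small difference in an abundant transcript. Its means were 237 ± 3.24 TPM in HLB01 and 220 ± 1.67 TPM in Control (SD, n = 3 each), a ratio of 1.08. The log2 difference was 0.11 ± 0.03 (SE; limma adjusted p = 0.387), with an interval of 0.03 to 0.18. Of all described members it varied least within groups, with a coefficient of variation of 1.13%.

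Among the other 8 of the 10 genes with the smallest p, fbxa-61, fbxa-167, fbxa-11, fbxa-218 and fbxa-55 were higher in HLB01. fbxa-61 had 3.06, 2.89 and 2.93 TPM in HLB01 libraries, against 2.06, 2.23 and 2.25 TPM in Control libraries (limma adjusted p = 0.428). fbxa-167 had 2.12, 1.90 and 1.96 TPM in HLB01 libraries, against 1.04, 1.70 and 0.95 TPM in Control libraries (limma adjusted p = 0.498). In both genes the groups did not overlap, with Control replicate 2 of fbxa-167 closest to the HLB01 values.

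The groups of fbxa-11 and fbxa-218 were also apart. fbxa-11 had 3.57, 3.63 and 3.36 TPM in HLB01 libraries and 2.72, 2.68 and 3.03 TPM in Control libraries (limma adjusted p = 0.599). fbxa-218 had 1.51, 1.59 and 1.86 TPM in HLB01 libraries and 0.97, 1.32 and 1.17 TPM in Control libraries (limma adjusted p = 0.604). In fbxa-55 the groups overlapped and HLB01 replicate 2 was high, with 5.82, 10.60 and 7.90 TPM in HLB01 libraries and 6.15, 5.16 and 4.64 TPM in Control libraries (limma adjusted p = 0.574). Its log2 difference was 0.50, and without that library 0.31.

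Lower in HLB01 were fbxa-197, fbxa-158 and fbxa-30, none with overlapping groups. fbxa-197 had 10.36, 9.59 and 10.31 TPM in HLB01 libraries and 12.24, 11.49 and 11.63 TPM in Control libraries (limma adjusted p = 0.509). fbxa-30 had 2.96, 2.47 and 2.94 TPM in HLB01 libraries and 3.20, 3.75 and 4.02 TPM in Control libraries (limma adjusted p = 0.595). fbxa-158, the CUL-6 partner named above, had 2.19, 2.64 and 2.22 TPM in HLB01 libraries and 3.14, 2.96 and 3.08 TPM in Control libraries (limma adjusted p = 0.566).

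**Figure D3:**
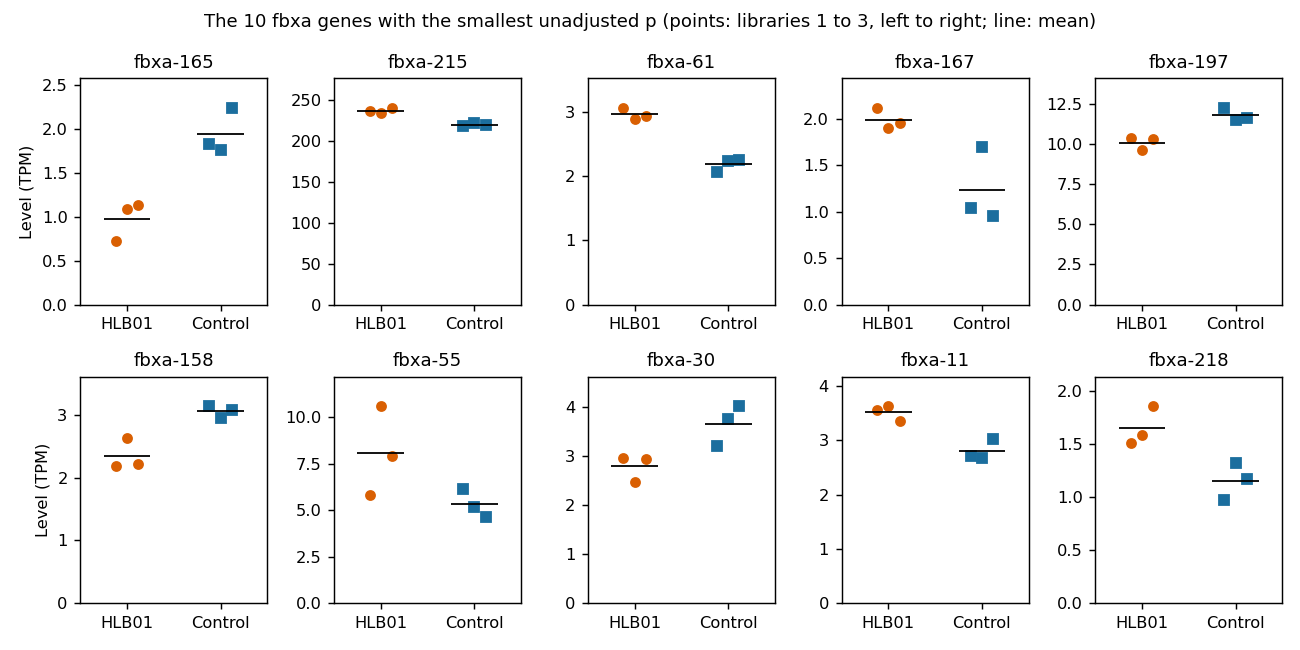
Levels (TPM, each axis from 0) of the 10 fbxa genes with the smallest unadjusted p, with HLB01 libraries as orange circles on the left and Control libraries as blue squares on the right of each panel. Points are replicates 1 to 3 from left to right and lines are means. The groups are apart in 9 panels and overlap in fbxa-55, and none of the 10 passed the adjusted threshold.

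The abundant members were close to level between the groups. Of the 10 highest, only fbxa-215 had groups that did not overlap. fbxa-210 had 55.22, 55.28 and 55.95 TPM in HLB01 libraries and 53.42, 52.50 and 55.40 TPM in Control libraries, a log2 difference of 0.04 with an interval of -0.06 to 0.15. fbxa-24 was the least even of them, with 20.01, 17.76 and 12.92 TPM in HLB01 libraries and 22.57, 16.41 and 16.14 TPM in Control libraries. The lowest value of fbxa-24 was in HLB01 replicate 3, and its log2 difference was -0.12 with all libraries and 0.05 without that one (limma adjusted p = 0.905 and 0.959). The log2 differences of the other 7, fbxa-60, fbxa-101, fbxa-107, fbxa-95, fbxa-206, fbxa-114 and fbxa-192, lay between -0.04 and 0.08.

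Most fbxa genes lie beside others of the family. Of the 170 genes, 60 are on chromosome III, 71 on V, 14 each on II and X, 6 on I and 5 on IV. Joining members less than 20 kb apart gave 24 runs that hold 118 genes (69.4%), while 52 stand alone. The share that met the 1 TPM rule was 58.3% on III, 46.5% on V, 71.4% on II and 35.7% on X. On chromosome III 23 of 35 described genes had a positive log2 difference (median 0.08), and on V 12 of 33 (median -0.04), where the shares over all tested genes of these chromosomes were 51.6% and 50.6%. On V, HLB01 replicate 3 was the lowest of the 6 libraries, with a median of -0.11 relative to the Control mean, against -0.03 to 0.03 in the other 5. It was also the lowest on II and X, at -0.21 on each, but not on I, III or IV. Positive differences numbered 4 of 10 on II and 2 of 5 on X, against 47.4% and 41.0% of all tested genes there. On I they numbered 1 of 4 and on IV 3 of 3, against 50.5% and 49.4%. These chromosome splits were looked at after the values were seen and have no test.

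The run with most members, on chromosome III from 1239048 to 1349450, holds 26 fbxa genes among 32 protein-coding genes. Levels within it ranged from 0.09 TPM for fbxa-28 to 10.9 TPM for fbxa-79, and 19 members met the rule, 10 with a positive and 9 with a negative log2 difference. A run of 15 genes on the same chromosome, from 2219708 to 2314035, was low throughout: 4 met the rule, and fbxa-219 was the highest at 2.37 TPM. Another run of 10 genes, from 933422 to 963833, holds fbxa-60 at 61.3 TPM and also fbxa-22 at 0.025 TPM, so near neighbours can differ greatly in level. On chromosome V, fbxa-107, fbxa-210 and fbxa-211 follow each other on the plus strand within 4.95 kb, at mean levels of 41.2, 54.6 and 6.69 TPM. None of the 5 genes of a run on V from 17549675 to 17585876 met the rule, with a highest mean level of 0.36 TPM.

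A run of 6 genes on the minus strand of chromosome II, from 1609252 to 1624672, contains both fbxa-165 and fbxa-158, and was singled out after its values were seen. Its first gene, fbxa-163, had 15.90, 16.25 and 18.28 TPM in HLB01 libraries and 16.06, 16.70 and 16.77 TPM in Control libraries, with overlapping groups and a log2 difference of 0.02. The 4 that follow in chromosomal order, fbxa-164, fbxa-165, fbxa-166 and fbxa-158, had lower means in HLB01 libraries. Of these, fbxa-166 is below the rule, with 0.48, 0.42 and 0.45 TPM in HLB01 libraries and 0.77, 0.75 and 0.72 TPM in Control libraries. Its groups were apart, as were those of fbxa-165 and fbxa-158, while those of fbxa-164 touched, its highest HLB01 value of 1.03 TPM lying above its lowest Control value of 1.00 TPM. In a fit with no filter on low values, fbxa-164, fbxa-165, fbxa-166 and fbxa-158 had log2 differences of -0.42, -0.57, -0.27 and -0.28 (limma adjusted p = 0.732, 0.402, 0.489 and 0.732). The last gene, fbxa-160, was listed at 0 in all libraries. How similar the sequences of these neighbours are was not examined here, and reads shared between them would tie their values together.

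**Figure D4:**
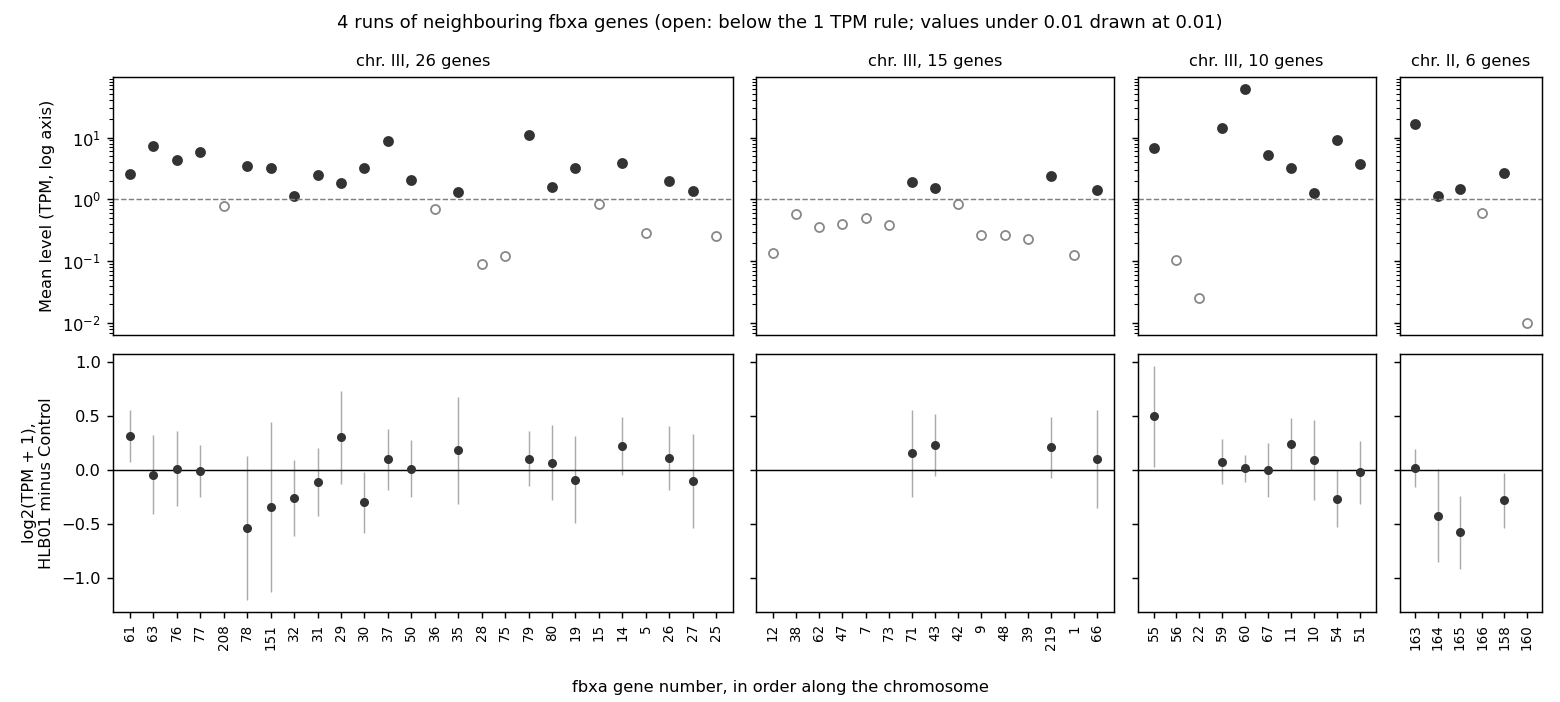
Runs of 26, 15 and 10 neighbouring fbxa genes on chromosome III and of 6 on chromosome II, in order along the chromosome. The upper row shows mean levels (TPM, log axis; filled, at least 1 TPM in 3 or more libraries; open, below) and the lower row the difference in log2(TPM + 1), HLB01 minus Control, with 95% limma intervals. In the chromosome II run, fbxa-163 lies at 0.02 and fbxa-164, fbxa-165 and fbxa-158 lie below 0. All 3 Control libraries, but only 1 HLB01 library for fbxa-164 and 2 for fbxa-165, reached 1 TPM. The filter thus kept these genes through Control, the group where they are higher.

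The 3 genes whose intervals reached beyond 1 log2 unit are named here after their values were seen. fbxa-18 had 1.46, 0.35 and 0.76 TPM in HLB01 libraries and 0.63, 1.67 and 2.32 TPM in Control libraries, a within-group coefficient of variation of 60.2%, the highest of the 90 genes. fbxa-151 had 1.54, 3.87 and 2.61 TPM in HLB01 libraries and 3.30, 2.09 and 5.81 TPM in Control libraries (49.2%). In fbxa-78 HLB01 replicate 2 was low, with 3.91, 1.20 and 3.11 TPM in HLB01 libraries and 3.98, 4.49 and 3.94 TPM in Control libraries. The groups of fbxa-18 and fbxa-151 overlapped, and those of fbxa-78 were apart by the gap between 3.91 and 3.94 TPM. All 928 exonic bases of fbxa-78 overlap fbxa-208 on the opposite strand, and 352 exonic bases of fbxa-18 overlap fbxa-88, also on the opposite strand. Both fbxa-78 and fbxa-151 lie on the minus strand in the same run on chromosome III, each with 928 exonic bases in 3 exons. Whether these 2 genes share sequence, and so reads, was not tested. Within groups, the median coefficient of variation was 5.70% for members at 10 TPM or more, 11.8% at 3 to 10 TPM and 19.9% under 3 TPM, against 5.70%, 13.1% and 21.6% for all genes tested at these levels.

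Summed over all 170 genes, the family took 944.8, 913.0 and 913.6 TPM in HLB01 libraries, against 916.3, 911.7 and 907.5 TPM in Control libraries. HLB01 replicate 1 had the highest sum, and the other 5 libraries lay within 10 TPM of each other.

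The other F-box classes and the ligase parts had no gene past the adjusted threshold either. Of the fbxb genes, 56 were tested, none passed in limma and 5 (8.93%) had an unadjusted p below 0.05, all lower, against 8.32% of all genes. Of these 5, fbxb-25 and fbxb-81 reached 1 TPM only in Control libraries, so the filter kept them through the group where they are high, and their difference is no evidence of direction. Of the 56, 46 had a negative log2 difference, with a median of -0.15. Relative to the Control mean, the fbxb median was -0.37 in HLB01 replicate 3, 0.01 and -0.05 in HLB01 replicates 1 and 2, and 0.11, 0.06 and -0.12 in the Control libraries. Without HLB01 replicate 3 the log2 differences were 28 positive and 28 negative, with a median of -0.01. The corresponding fbxa medians were 0.03, -0.02 and -0.05 in HLB01 libraries and 0.00, 0.00 and -0.02 in Control libraries. Of 48 fbxc genes, 29 were tested, none with an unadjusted p below 0.05. Their median was -0.04, and 22 of the 29 had a negative log2 difference. The fbxc median relative to the Control mean was -0.20 in HLB01 replicate 3 and 0.02 and -0.03 in HLB01 replicates 1 and 2. In the Control libraries it was 0.02, 0.06 and -0.12. With HLB01 replicate 3 left out, 11 fbxc differences were positive and 18 negative, with a median of -0.01. A test of the difference between the classes was not made.

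Among the SKR adaptors, which link F-box proteins to the cullin, 19 of 20 genes were tested and none passed, with a median log2 difference of -0.12. An unadjusted p below 0.05 was reached by 2 (10.5%, against 8.32% of all genes), skr-5 and skr-21, both lower in HLB01. Without HLB01 replicate 3 none of the 19 reached it. The SKR median was likewise lowest in HLB01 replicate 3, at -0.29 relative to the Control mean, and without that library the median difference was -0.03. The main adaptor skr-1 averaged 320 ± 15.9 TPM in HLB01 and 328 ± 13.7 TPM in Control (SD, n = 3 each). The cullin cul-1 averaged 43.8 ± 2.93 TPM in HLB01 and 45.1 ± 1.29 TPM in Control. A list of 15 further ligase genes held cullin, RING-finger, neddylation and COP9 signalosome genes, and also cand-1 and uba-1. All 15 were tested, none passed or reached an unadjusted p below 0.05, and the median log2 difference was 0.03. None of 8 single F-box genes passed or reached an unadjusted p below 0.05, among them fog-2 at 47.0 ± 4.49 TPM in HLB01 and 46.6 ± 2.50 TPM in Control.

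**Figure D5:**
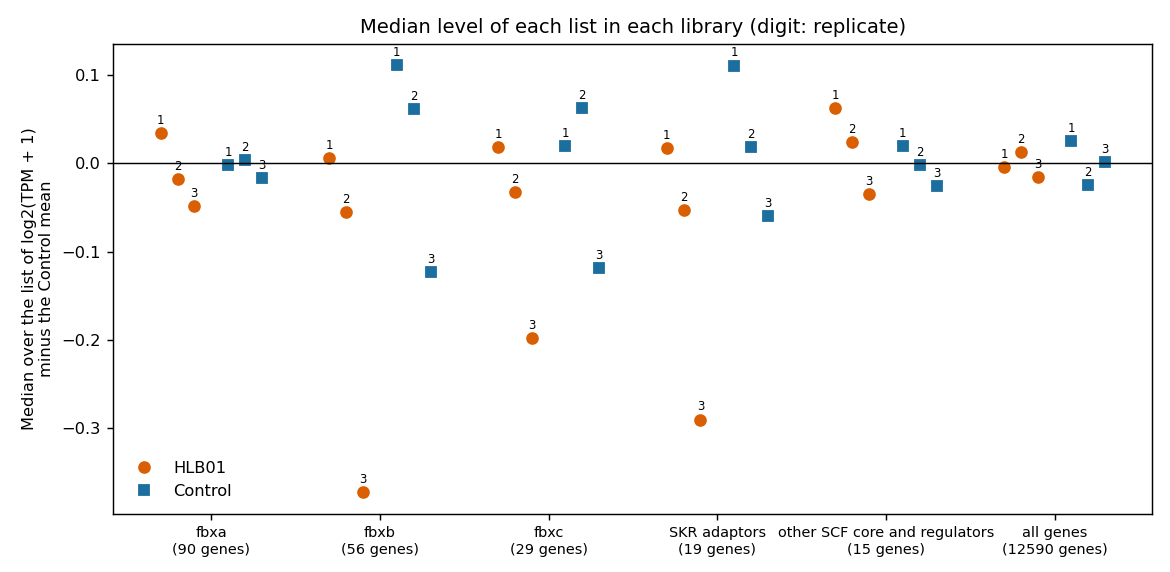
Median over each list of log2(TPM + 1) minus the mean of the Control libraries, for each HLB01 library (orange circles, left) and Control library (blue squares, right), with the replicate number above each point. The fbxa medians lie between -0.05 and 0.03, while the fbxb, SKR and fbxc medians of HLB01 replicate 3 lie at -0.37, -0.29 and -0.20.

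FBXA-75 and FBXA-158 serve as F-box proteins of the CUL-6 ligase. Of the 10 genes listed for this ligase and its response, 8 were tested and none passed in limma, while 2 of the 8, against 8.32% of all genes, had an unadjusted p below 0.05, skr-5 and fbxa-158, both lower in HLB01. Its cullin cul-6 averaged 4.01 ± 0.580 TPM in HLB01 and 3.54 ± 0.140 TPM in Control (SD, n = 3 each; log2 difference 0.14, limma adjusted p = 0.822). Its RING-finger gene rcs-1 averaged 12.4 ± 0.838 TPM in HLB01 and 12.4 ± 0.886 TPM in Control. Of its adaptors, skr-3 and skr-4 had log2 differences of 0.00 and 0.02. The adaptor skr-5 averaged 4.75 ± 0.767 TPM in HLB01 and 6.74 ± 1.48 TPM in Control, with overlapping groups (log2 difference -0.42, limma adjusted p = 0.599). The gene fbxa-75 was barely detected, with 0.16, 0.10 and 0 TPM in HLB01 libraries and 0.27, 0.05 and 0.16 TPM in Control libraries. The marker gene of this response, pals-5, was also under 1 TPM in all libraries, at means of 0.34 TPM in HLB01 and 0.28 TPM in Control.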

How the data were processed

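Total RNA of C. elegans was extracted with TRIzol, cleared of DNA and made into Illumina libraries, per the labels' protocols. The deposited TPM values were made by the authors with fastp, HISAT and RSEM on the genome build WBcel235, per the submitters' processing notes. The sources used here give no versions, annotation release, filters or strand setting. Each column sums to between 996558 and 997389. Symbols came from the supplied gene table, which matched 43818 of 46778 identifiers, and positions from Ensembl release 115 of WBcel235.

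From these values, log2(TPM + 1) was computed for genes reaching 1 TPM in 3 or more libraries and compared between groups with limma 3.58.1 (R 4.3.3), using a mean-variance trend and two-sided tests, with Benjamini-Hochberg adjustment over all 12590 genes at 0.05 and 95% intervals. The code was tested on simulated data. Members and lists were chosen with earlier results of these data known. Members named are any past the threshold, the 10 with the smallest p, the 10 with the highest mean, fbxa-75, fbxa-158, any that passed the filter through a single group, and the 3 nearest the filter on each side; of the other lists, any past the threshold and cul-1, cul-6, skr-1 and fog-2. Other genes were named after their values were seen. Alternatives were other models, pseudocounts, filters and scalings, a replicate block and leaving out each library. Sequences were not used here.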

Additional observations from a re-analysis of the deposited data

How the results depend on the processing

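No fbxa gene and no gene of the other F-box and ligase lists passed the adjusted threshold under any of the 16 alternatives. The smallest limma adjusted p of any fbxa gene was 0.135 (fbxa-61, without the trend), and the share of fbxa genes with an unadjusted p below 0.05 lay between 4.44% and 16.7%, against 6.76% to 9.48% of all genes. The highest share, 15 of 90 genes, was without the trend, where 8.35% of all genes had such a p. The median log2 difference of the family stayed between -0.02 and 0.02. Over all genes, 50 passed in the fit reported, 27 without the trend, 80 with array weights, 22 with no filter on low values, and 19 to 32 when 1 library was left out; the cause was not tested.

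Of 22 named members, 6 changed sign in at least 1 alternative, with log2 differences of -0.12 to 0.02 when all libraries were used. With array weights fbxa-107 was at 0.0201. Over the fits that left out 1 library, the log2 difference ranged from -0.0854 to 0.0354 for fbxa-95, -0.0911 to 0.0183 for fbxa-101, -0.0603 to 0.0470 for fbxa-107, -0.246 to 0.0513 for fbxa-24, -0.0280 to 0.0448 for fbxa-60 and -0.00880 to 0.0543 for fbxa-114. The adjusted p of fbxa-165 ranged from 0.185 to 0.515 over the alternatives that tested it, and the filter of 5 TPM removed it. Of 19 SKR genes, between none and 8 had an unadjusted p below 0.05 over the alternatives.

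The labels do not say whether replicate numbers pair the samples. Deviations of same-numbered libraries from their group means correlated at -0.01, 0.04 and 0.13 over the genes tested. HLB01 replicate 1 correlated best with Control replicate 2. With so few libraries per group, these correlations cannot decide whether the samples were paired. With the number as a replicate block, 48 genes passed in all, no fbxa gene passed, 7 had an unadjusted p below 0.05 (7.78%, against 9.48% of all genes), 8 of 19 SKR genes had (smallest adjusted p in limma 0.114), and the median log2 difference of the family was -0.00164. TPM keeps no depth, so how many reads lie behind the genes near 1 TPM is unknown.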
